A study of Homo sapiens with 2 samples.

Results

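The cyclin-dependent kinases CDK4 and CDK6, the D-type cyclins CCND1, CCND2 and CCND3, their inhibitors CDKN2C, CDKN2D and CDKN1B and their substrate RB1 were followed in K562 cells, a human erythroleukemia line, after transfer of a miR-34a mimic. Members were taken as every probe set of an Affymetrix expression array whose platform annotation carried 1 of these 9 symbols and no other. This gave 21 of 54675 probe sets and 8 of 19775 genes. No probe set carried the symbol CDKN2C, and that gene was not analysed here. The tested culture had received 3 µg of miR-34a mimic by nucleofection, which drives nucleic acid into cells with an electric pulse. The other culture had received 3 µg of a control mimic without homology to human genes. Total RNA was taken 24 hours later, and 1 array was run per group. Every value below is therefore a reading without a replicate, no p-value can be given, and having 1 array in each group sets the precision. The labels give the mimic as the only difference between the cultures and name no untransfected one.

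D-type cyclins are made in response to growth signals and bind CDK4 or CDK6. The active complexes phosphorylate RB1, the retinoblastoma protein, which then releases E2F transcription factors and lets cells pass from G1 into S phase. INK4 proteins such as those of CDKN2C and CDKN2D bind the kinases and keep cyclins out, whereas p27, the product of CDKN1B, mainly blocks the later CDK2 complexes. CDK4, CDK6 and CCND1 are known as direct targets of miR-34a, a microRNA that p53 induces. K562 cells carry the BCR-ABL1 fusion, lack working p53 and have lost the INK4 locus that holds CDKN2A and CDKN2B.

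The mature microRNA is shown first because its seed, bases 2 to 8 in capitals, is what pairs with target mRNAs. The sequences are those of RefSeq (GRCh38.p14); the labels give no sequence for the mimic itself. The mature miR-34a-5p sequence lies on the minus strand at chr1:9151735-9151756.

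hsa-miR-34a-5p: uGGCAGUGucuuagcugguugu
hsa-miR-449a: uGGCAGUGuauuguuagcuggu
hsa-miR-449b-5p: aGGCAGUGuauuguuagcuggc
hsa-miR-34b-5p: uaGGCAGUGucauuagcugauug

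Of 2370 mature microRNAs in that table, 3 shared this seed at bases 2 to 8 (chromosome 8 was left out of the search). They were miR-34a-5p, miR-449a and miR-449b-5p. The count does not take in miR-34c-5p, also of this family, which was not analysed here. The relative miR-34b-5p holds the same 7 letters at bases 3 to 9, as its capitals mark. An mRNA site for the seed reads CACTGCC, and CACTGCCA with an A opposite base 1. Sites in the members were not searched, since no 3′ UTR sequence was used here.

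The signal is the deposited probe set intensity, in arbitrary units on a linear scale. Log2 ratios are the miR-34a mimic over the control mimic, after 14.9 was added to both signals and the median of all expressed genes was set to 0, so they understate the change of dim probe sets. A probe set is called expressed where its mean log2 level is at or above the median of all non-control probe sets. A signal up to 75.4, the highest of 27 bacterial control probe sets, is called within background. The arrays had medians of 40.1 with the miR-34a mimic and 39.5 with the control mimic, and 18 spiked-in control probe sets gave a log2 ratio of 0.014 ± 0.068 (SD over probe sets). The ratio of 3′ to 5′ signal, which grows as RNA degrades, was 3.53 with the miR-34a mimic and 3.07 with the control mimic for GAPDH, and 4.54 and 4.30 for ACTB. Its part in the values below was not tested. Of 12 measured markers of K562 erythroid identity, among them the globins, TFRC and GATA1, all 12 were above background on both arrays, with summed signals of 57386 with the miR-34a mimic and 50279 with the control mimic. Above background were 3 of 13 lymphoid markers on both arrays (summed signals 2153 and 2364), 5 of 14 monocyte and granulocyte markers with the miR-34a mimic and 3 with the control mimic (1341 and 1165), and 6 of 11 epithelial and fibroblast markers on both arrays (8785 and 11363). CDH1 was at 1, the lowest value deposited, with the control mimic. MS4A1, CD3E, CD14, MPO and CDH1 were within background on both arrays, while CD79A, PTPRC, CD3D, LYZ, CSF3R, EPCAM, KRT18, KRT19, COL1A1, COL1A2 and VIM were above it on both. Some of these differed between the arrays: CD3D had a log2 ratio of -1.41, EPCAM -1.12, COL1A2 -0.91 and VIM -0.82. SPI1 had 1.07 and AIF1 1.44, both with control mimic signals within background. Of the erythroid markers, 8 had an expressed probe set of their own. Higher with the miR-34a mimic were 7 and lower 1, while 50.0% of all expressed genes were higher. Their median log2 ratio was 0.21, with HBZ highest at 0.84 and EPOR at 0.50. The EPOR value was the highest of its 4 expressed probe sets, the lowest of which gave -0.08. The part of these markers in the values below was not tested. In bulk RNA, fewer cells with an mRNA and less of it per cell cannot be told apart.

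Both kinases were lower with the miR-34a mimic by about 3-fold, while the D-type cyclins, CDKN1B and RB1 differed by less than 1.5-fold on their brightest probe sets. Of the 8 measured members, 7 had an expressed probe set, and 2 of these 7, CDK4 and CDK6, were at least 2-fold lower; over all 12774 expressed genes, 0.548% were. At least 2-fold higher were 0 of the 7 members, against 0.595% of all genes. The remaining 5 expressed members were CCND2, slightly lower, and CCND1, CCND3, CDKN1B and RB1, higher by less than 1.5-fold. The median log2 ratio of the 7 was 0.034, beside 0 for all expressed genes by construction. Counted by probe set, 13 of the 21 were expressed and 4 of the 13 were at least 2-fold lower, against 0.505% of all 27307 expressed probe sets. At least 2-fold higher were 0 of the 13, against 0.531% of all. At 1.5-fold, 6 of the 13 were lower and 0 higher, against 3.00% and 3.16% of all expressed probe sets. The 4 past 2-fold belong to the kinases, and the other 2 are dim probe sets of CDK6 and CCND2. A further 8 probe sets read within background on both arrays, and their ratios are given only as readings.

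**Figure D1:**
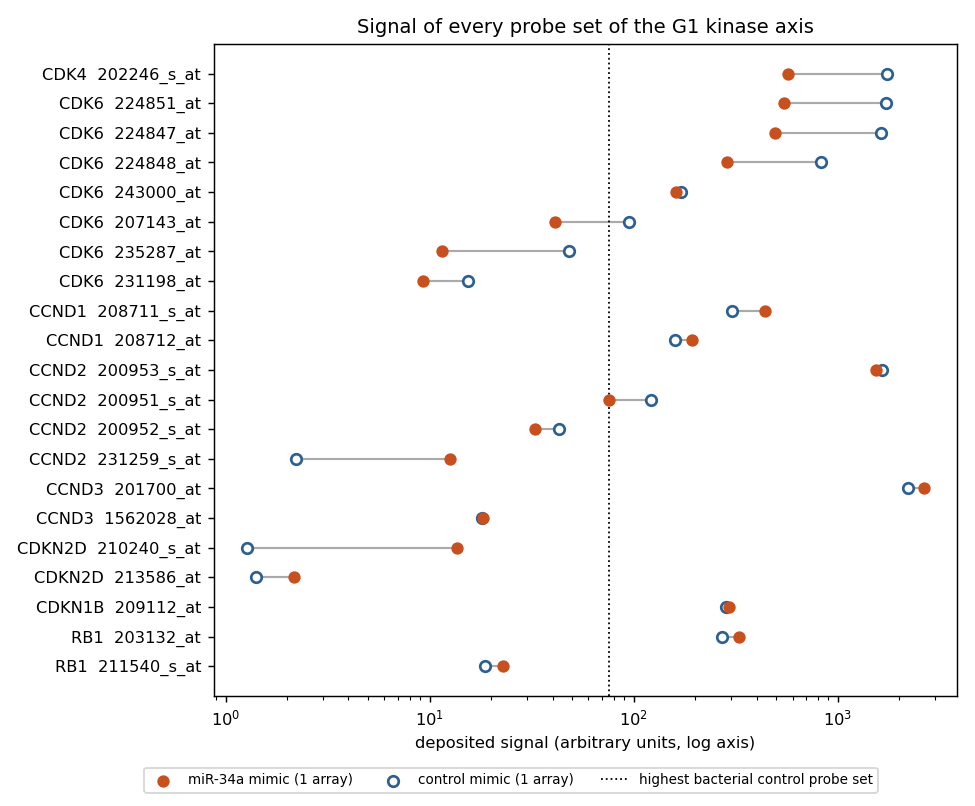
Deposited signal (arbitrary units, log axis) of the 21 probe sets of the 8 measured members, with filled points for the miR-34a mimic array, open points for the control mimic array and a dotted line at 75.4, the highest bacterial control. CDK4 and the 3 brightest CDK6 probe sets lie well above the line and are widely apart, from 287 to 573 with the miR-34a mimic and from 828 to 1743 with the control mimic.

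CDK4, the kinase that drives G1 in most tissues, was read by probe set 202246_s_at alone. Its signal was 572.8 with the miR-34a mimic and 1743.4 with the control mimic, so 0.329 of the control signal was left. The log2 ratio was -1.59, a 3.01-fold lower level on that scale. Both readings were far above background. CDK4 was the 12th lowest of 12774 expressed genes. Having a lone probe set, and of the _s_at class that may detect related transcripts, CDK4 has no second reading on these arrays.

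CDK6, the kinase that prevails in blood cells, had 7 probe sets, and all 7 were lower with the miR-34a mimic. Probe set 224851_at read 543.2 with the miR-34a mimic and 1713.8 with the control mimic. Probe set 224847_at read 492.0 with the miR-34a mimic and 1620.6 with the control mimic, and 224848_at read 287.3 with the miR-34a mimic and 828.4 with the control mimic. These 3 brightest probe sets had log2 ratios of -1.64, -1.70 and -1.49, a mean of -1.61 ± 0.11 (SD over 3 probe sets). This SD covers differences between probe sets on 1 pair of arrays and not differences between cultures.

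The dimmer CDK6 probe sets did not all follow. Probe set 207143_at read 41.0 with the miR-34a mimic, within background, and 95.1 with the control mimic, for a log2 ratio of -0.99. Probe set 235287_at read 11.5 with the miR-34a mimic and 48.0 with the control mimic, and 231198_at read 9.23 with the miR-34a mimic and 15.4 with the control mimic, so both were within background throughout. Both were also lower with the miR-34a mimic, by ratios that a background of this height does not let be read as sizes.

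The exception above background was 243000_at, at 160.6 with the miR-34a mimic and 170.4 with the control mimic. Its log2 ratio of -0.087 is close to no change, and 36.9% of all expressed probe sets were as low or lower. Which part of which CDK6 transcript each probe set reads is not given in the sources used here. Over the 5 expressed probe sets the mean log2 ratio was -1.18 ± 0.67 (SD over probe sets), and their range of 1.61 compares with a median range of 0.49 over the 338 genes with 5 or more expressed probe sets. All expressed probe sets were lower in 51 of those 338 genes, or 15.1%. Only 2 of the 51, CDK6 and the nuclear pore gene NUP210, named after its values were seen, had 3 or more probe sets at least 2-fold lower. These limits of 5 and 3 probe sets equal the counts of CDK6 itself, so its place among the 2 was given.

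The difference in the kinases was large also among mRNAs with a strong signal. A mean signal over 1000 across both arrays, a limit chosen after the values were seen, was reached by 1815 genes, of which 0.331% were at least 2-fold lower with the miR-34a mimic and 0.220% at least 2-fold higher. CDK6 and CDK4 were the lowest of these 1815, followed by MCM3 at -1.20. With that limit set on the control signal alone, which favours genes that are lower with the mimic, they ranked 3 and 4 of 1839. The limit on the mean in turn leaves out PPP1R11 at -1.74 and APOC1 at -1.66, both lower than the kinases. PPP1R11 read 292.6 with the miR-34a mimic and 1006.0 with the control mimic, and APOC1 read 344.35 and 1115.7. Over all expressed genes whose control signal was above background, 9974 in number, CDK6 was the 10th and CDK4 the 12th lowest. The 5 lowest were CAVIN2 at -2.24, NAGPA at -1.91, TSEN15 at -1.88, LOC100996549 at -1.85 and PPP1R11 at -1.74. NAGPA and LOC100996549 read 18.3 and 16.3 with the miR-34a mimic, within background, so the size of their ratios and their place in this order cannot be read.

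The genes closest to the kinases in log2 ratio over the 2 arrays were taken as 3 for each kinase, a number set beforehand. Closest to CDK4 were TAF4B at -1.62, GNPDA1 at -1.55 and CDK6 itself, which differed from it by 0.050. Closest to CDK6 were RPIA at -1.65, TAF4B at -1.62 and APOC1 at -1.66. With 1 array per group this likeness is a nearness in size alone. The difference of 0.050 between the kinases is below 0.24, the spread between probe sets of a gene. This spread is a pooled SD over the 5494 genes with 2 or more expressed probe sets. It covers readings on 1 pair of arrays and not differences between cultures, so no order between the kinases is read.

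**Figure D2:**
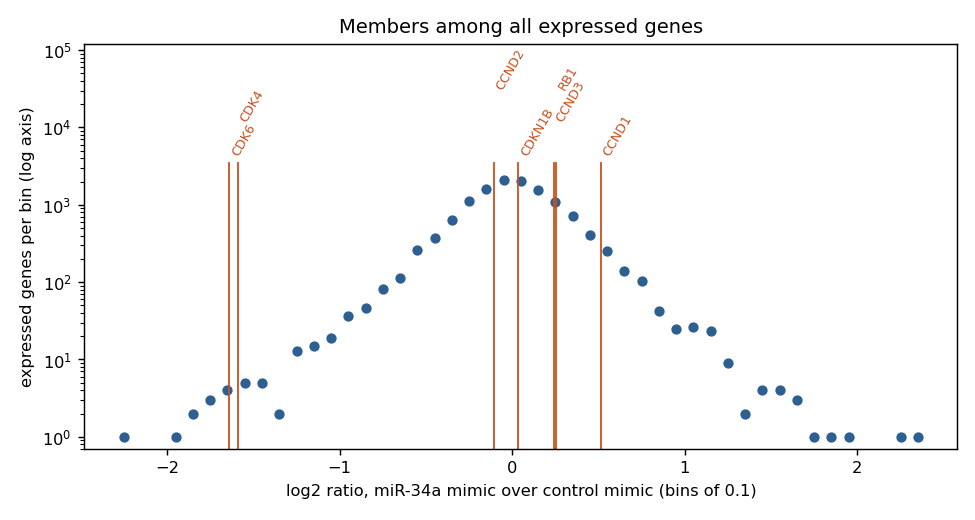
Number of expressed genes in bins of 0.1 of the log2 ratio (points, log axis), with lines at the 7 expressed members. CDK6 and CDK4, at -1.64 and -1.59, stand in the sparse left tail, and the other 5 members stand between -0.11 and 0.51.

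The D-type cyclins, the activating partners of both kinases, were not lower as the kinases were. CCND1, a known direct target of miR-34a in other cells, was higher with the miR-34a mimic on both of its probe sets. Probe set 208711_s_at read 441.0 with the miR-34a mimic and 302.2 with the control mimic, a log2 ratio of 0.51, and 208712_at read 192.8 with the miR-34a mimic and 159.0 with the control mimic, a log2 ratio of 0.25. Their mean was 0.38 ± 0.19 (SD, 2 probe sets). On its brightest probe set CCND1 was 1.43-fold higher, short of the 1.5-fold that 3.28% of all genes reached, and it was the 593rd highest of 12774.

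CCND2, the D-type cyclin known for its role in lymphoid and myeloid growth, depended on the probe set. The brightest, 200953_s_at, read 1539.9 with the miR-34a mimic and 1650.4 with the control mimic, a log2 ratio of -0.11. The next, 200951_s_at, read 75.4 with the miR-34a mimic, at the height of background, and 122.1 with the control mimic, a log2 ratio of -0.61. The SD over these 2 expressed probe sets was 0.36. The remaining pair read within background on both arrays, 200952_s_at at 33.0 with the miR-34a mimic and 43.1 with the control mimic, and 231259_s_at at 12.6 with the miR-34a mimic and 2.21 with the control mimic. Only the brightest CCND2 probe set thus stood above background on both arrays, and there the arrays were nearly level.

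CCND3, the cyclin that serves erythroid and lymphoid precursors, had a bright probe set, 201700_at. It read 2633.3 with the miR-34a mimic and 2212.7 with the control mimic, a log2 ratio of 0.24, or 1.18-fold higher. This is about the pooled SD of 0.24 between probe sets of a gene, which is no measure of error between arrays or cultures. The other probe set, 1562028_at, read 18.25 with the miR-34a mimic and 18.02 with the control mimic, within background. All 3 D-type cyclins therefore had a probe set well above background on both arrays, at log2 ratios between -0.11 and 0.51.

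Of the inhibitors, only CDKN1B could be read. Its probe set 209112_at read 293.8 with the miR-34a mimic and 284.7 with the control mimic, a log2 ratio of 0.034, so p27 mRNA was level between the arrays. CDKN2D, which encodes the INK4 inhibitor p19, read within background on both probe sets. Probe set 210240_s_at gave 13.6 with the miR-34a mimic and 1.28 with the control mimic, and 213586_at gave 2.17 with the miR-34a mimic and 1.41 with the control mimic, near the floor of 1 in the table. No change is read from CDKN2D.

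RB1, the substrate of the kinases, had a probe set above background, 203132_at, which read 326.7 with the miR-34a mimic and 269.5 with the control mimic. The log2 ratio was 0.26, a 1.19-fold higher level. It is again close to the pooled SD of 0.24, which is no measure of error between arrays or cultures. The other probe set, 211540_s_at, read 22.8 with the miR-34a mimic and 18.6 with the control mimic, within background. Seen across the axis, the expressed mRNAs with the large difference were those of the kinases, and the mRNAs of their cyclin partners, of p27 and of RB1 were present on both arrays at levels within 1.5-fold on the brightest probe set.

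The neighbours of the axis in G1 were described from lists, chosen with earlier results of these data known. Over all expressed genes, 0.548% were at least 2-fold lower and 0.595% at least 2-fold higher. In lists this short, a count of 0 past 2-fold is near those shares. Of 6 genes for the other pocket proteins, cyclin E, CDK2 and the phosphatase CDC25A, all 6 were expressed, 4 were lower and 2 higher, and 0 passed 2-fold, with a median log2 ratio of -0.20. CDC25A, which removes inhibitory phosphates from CDKs, was lowest at -0.58, with 762.6 with the miR-34a mimic and 1143.5 with the control mimic, and its 3 probe sets lay between -0.66 and -0.58. CCNE2, a cyclin of CDK2, was next at -0.32. RBL2 (p130) was highest at 0.28 and RBL1 (p107) followed at 0.25, although the second probe set of RBL1 gave -0.44.

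Other CDK inhibitors differed little. Of 5 listed, 3 were expressed, namely CDKN1A (p21) at 0.13, the phosphatase gene CDKN3 at -0.020 and CDKN1C (p57) at -0.025. CDKN2A read at most 36.4 with the miR-34a mimic and 39.1 with the control mimic over 3 probe sets, and CDKN2B at most 25.1 with the miR-34a mimic and 10.6 with the control mimic over 2, all within background. With CDKN2D, each of the 3 measured INK4 genes was therefore within background in both cultures.

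The enzymes and chaperones that make CDKs active were close to level, with 0 past 1.5-fold. Of all expressed genes, 3.01% were at least 1.5-fold lower and 3.28% at least 1.5-fold higher. Of 6 genes, 5 were lower and 1 higher, with a median of -0.15. CDK7 and MNAT1, parts of the CDK-activating kinase, were lowest at -0.24 and -0.23, and the HSP90 genes HSP90AB1 and HSP90AA1 were highest at -0.034 and 0.067. Another HSP90AB1 probe set gave -0.34, and another of HSP90AA1 gave -0.12. Of 14 genes for the turnover of D-type cyclins and p27, 12 were expressed, 7 lower and 5 higher, and 0 passed 2-fold, with a median of -0.11. FBXO31, a ubiquitin ligase subunit for cyclin D1, had the lowest ratio at -0.38 and CKS1B, the cofactor of SKP2 in p27 degradation, -0.35. The FBXO31 probe set was dim, at 82.6 with the miR-34a mimic and 111.0 with the control mimic, and its other probe set gave -0.093. SKP1 and AMBRA1, also ligase components, had the highest at 0.14 and 0.12, and other AMBRA1 probe sets went down to -0.13.

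In the other CDKs and cyclins, 0 genes passed 1.5-fold. Over all expressed genes, 3.01% were at least 1.5-fold lower and 3.28% at least 1.5-fold higher, so 0 is near those shares. Of 15 other CDKs, 10 were expressed, 6 higher and 4 lower, with 0 past 2-fold and a median of 0.093. CDK16 was lowest at -0.53, although another of its probe sets gave 0.28, and CDK19 followed at -0.20 with its miR-34a mimic signal within background. CDK5 and CDK10 were highest at 0.36 and 0.33, and another CDK10 probe set gave -0.33. Of 15 other cyclins, all expressed, 9 were lower and 6 higher, with 0 past 2-fold and a median of -0.052. The mitotic cyclin CCNB1 at -0.45 and CCNA2 at -0.35 were lowest, and CCNT2 at 0.30 and CCNG2 at 0.27 highest, each of the higher pair with another probe set below 0.

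Genes that E2F factors activate, downstream of RB1, were mostly lower with the miR-34a mimic. Of 38 listed, 36 were expressed and all 36 were above background on both arrays. Lower were 31 and higher 5, while 50.0% of all expressed genes were lower. The list was chosen with earlier results of these data known, so its counts are only a description. At least 1.5-fold lower were 6, against 3.01% of all genes, and at least 2-fold lower was 1, with a median log2 ratio of -0.24. The helicase subunit MCM3 was lowest at -1.20, with 791.6 with the miR-34a mimic and 1828.4 with the control mimic. It was followed by UNG, the uracil-DNA glycosylase gene, at -0.86, with 329.3 with the miR-34a mimic and 604.5 with the control mimic. Highest were RBL1 at 0.25 and RRM2, a subunit of ribonucleotide reductase, at 0.10, which was higher on both of its probe sets. This list shares CCNE1, CCNE2, CCNA2, CDK1 and RBL1 with the lists above. The median of this list was small beside the log2 ratios of the kinases, and no error between cultures is available for any of them.

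**Figure D3:**
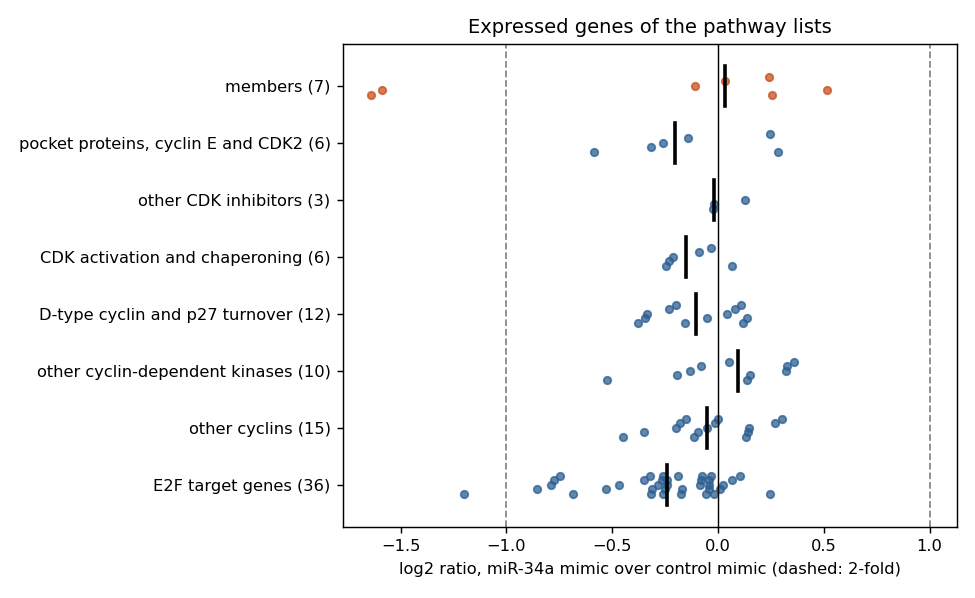
Log2 ratios of the expressed genes of the axis and of 7 pathway lists (1 point per gene, the number of genes in brackets, black bars for medians, dashed lines at 2-fold). The E2F target genes have a median of -0.24 with MCM3 at -1.20, and CDK4 and CDK6 are the only points below -1.5.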

How the data were processed

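K562 RNA was hybridised to 1 Affymetrix array per group after biotin labelling of cRNA, per the labels' protocols. The authors deposited 1 table of intensity values on a linear scale; which software and scaling made it is not given in the sources used here. Its columns were matched to samples by name, and 0 columns were left over. The lowest value was 1, held by 3.54% of probe sets with the miR-34a mimic and 3.58% with the control mimic. From the deposited intensity, log2(signal + 14.9) was taken, a pseudocount set at the 25th percentile over both arrays. Probe sets with a mean log2 level at or above the median of 54613 non-control probe sets counted as expressed, at a signal of about 39.0. Only the 41091 probe sets with exactly 1 gene symbol in the platform annotation were used for genes, leaving out 1801 with more and 11721 without. A gene took the ratio of its brightest expressed probe set, less the median of 0.0090.

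With 1 array per group no test was possible, and genes were counted by size. Named genes are the members, the 2 highest and 2 lowest of each list, the 3 nearest to CDK4 and to CDK6 in log2 ratio, and the 5 lowest with a control signal above background. The members and lists were chosen with earlier results of these data known. No genome position of a member is given, since the probe sets are tied to no build here. The calculation was tested on simulated data. Python 3.11.15, NumPy 2.4.6, pandas 2.3.3, statsmodels 0.14.6 (loess, span 0.3) and matplotlib 3.10.9 were used.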

Additional observations from a re-analysis of the deposited data

How the results depend on the processing

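Values were recomputed with other pseudocounts, expression filters and size thresholds, without centring, after quantile or loess normalization, and with other choices of probe sets. CDK4 lay between -1.61 and -1.52 under 8 alternatives. CDK6 lay between -1.66 and -1.56 except as a mean over its expressed probe sets, which gave -1.17 and takes in 243000_at, the probe set near 0. Members at least 2-fold lower numbered 2 throughout, except for 1 without the _s_at, _x_at and _a_at classes, which removes the only probe set of CDK4 and leaves CCND2 without a value. Member probe sets at least 2-fold lower ranged from 3 to 5, with 6 at least 1.5-fold lower, and 0 members or member probe sets were 2-fold higher under any setting. CCND1 was 0.25 without those classes, and CCND2 was -0.35 as a mean over probe sets. The median of the E2F target genes stayed between -0.25 and -0.22. A change was called small when under the pooled SD of 0.24 between probe sets (for the median, divided by the square root of 36). This limit only sorts the settings and is no error of the median, since its genes were read on 1 pair of arrays. No paired analysis was possible because each group has 1 array. Signals within background on at least 1 array limit both CDKN2D probe sets, 3 of the 7 of CDK6 and 3 of the 4 of CCND2. They also limit 1 of the 2 probe sets of CCND3 and 1 of the 2 of RB1.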
